A study of Mus musculus with 8 samples.

Results

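Polyamine synthesis and antizyme genes were chosen by name, and the 8 chosen genes are Odc1, Amd1, Srm, Sms, Oaz1, Oaz2, Azin1 and Sat1. All 8 were listed in each of the 3 gene tables, among 10690 genes listed in at least 1 table and 9875 listed in all 3. The cells were NIH3T3, an established mouse fibroblast line, and they were nontreated (NT), kept in 250 μM sodium arsenite for 1 h (AS), or kept in arsenite for 1 h and then washed and left in regular medium, 4 h for RC4 and 8 h for RC8. Total RNA of each condition gave 1 QuantSeq FWD library, which sequences the 3′ end of polyadenylated RNA and thereby counts reads per gene and per polyadenylation site (PAS). All 4 libraries were of the same cell line and kit, and how the PASs of the 8 genes and their read numbers differed between these conditions is the question of the 3 comparisons with NT.

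Putrescine, spermidine and spermine are small cations that bind nucleic acids and are needed for growth and translation. Ornithine decarboxylase (Odc1) makes putrescine, S-adenosylmethionine decarboxylase (Amd1) supplies the aminopropyl donor, and spermidine synthase (Srm) and spermine synthase (Sms) add the aminopropyl groups. Antizymes (Oaz1, Oaz2) are made by a frameshift that polyamines promote, and they bind ornithine decarboxylase and send it to the proteasome, while the antizyme inhibitor (Azin1) binds antizyme in its place. Spermidine/spermine N1-acetyltransferase (Sat1) starts their breakdown and export.

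Azin1 and Odc1 are the members whose PASs are described in most detail below, and the 30 bases that end at each of their PASs are shown for that reason. Capitals mark a polyadenylation hexamer, AATAAA or ATTAAA, searched on the transcribed strand only, and the letters are from the NCBIM37 (mm9) genome, the build of the deposited coordinates. Azin1 lies on the minus strand of chromosome 15, its 5 PASs all lie in the 3′-most exon, within its annotated 3′ UTR, and they are numbered from 1, the most proximal, to 5. Odc1 lies on the plus strand of chromosome 12 and has a PAS in an intron and another in the 3′ UTR of its 3′-most exon.
Azin1 PAS 1, chr15:38419549-38419578, minus strand: tgattgcAATAAAactttgtgtagatctta
Azin1 PAS 2, chr15:38419265-38419294, minus strand: taatcctgcataaaccaattgtaataataa
Azin1 PAS 3, chr15:38418174-38418203, minus strand: ctgtttgccataaatctaaagtcaaaccta
Azin1 PAS 4, chr15:38417992-38418021, minus strand: aatacacagataaaatgtttttattcctca
Azin1 PAS 5, chr15:38417870-38417899, minus strand: aaagtaaagtgatctggggattgcctagca
Odc1 intronic PAS, chr12:17553066-17553095, plus strand: cactgaagtgggtcacacaacggaaaaaaa
Odc1 PAS of the 3′-most exon, chr12:17557871-17557900, plus strand: agtatcttgaaataactgggcatcagggaa

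Of these 7 windows, that of Azin1 PAS 1 held a hexamer, and variants other than AATAAA and ATTAAA were not searched. Among all 21565 listed PASs, 47.0% held AATAAA or ATTAAA in the 30 bases before the PAS, and among the 2113 intronic ones 47.2% did. The intronic window of Odc1 ended in a run of A.

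The libraries held 22.4 M to 23.0 M reads on genes, no library had a replicate, and no P value could be given. Intervals are 95% intervals for counting error only, exact Poisson for normalized read numbers, exact conditional binomial (Clopper-Pearson) for log2 changes and Wilson for shares. Differences from culture to culture are not covered, and since the reads carry no molecular identifiers, several may come from 1 molecule. As a check of the labels, the arsenite-inducible heme oxygenase gene Hmox1 stood at 27.6 RPM (per-million number of reads on genes) in NT, 57.8 after AS, 888 at RC4 and 101 at RC8. The other listed arsenite-inducible genes, Hspa1b, Dnajb1 and Srxn1, were also highest in RC4, with log2 changes over NT of 5.80, 3.34 and 3.27. After AS they were 2.37, 1.72 and −0.08, so Srxn1 was not higher than NT in the AS library. Hspa1a and Atf3, also sought, were listed in no table. All 6 fibroblast markers sought (Col1a1, Col1a2, Vim, Fn1, Thy1, Pdgfrb) were listed in every table, while the 3 epithelial, 2 leukocyte and 2 endothelial ones were in none, a table listing a gene only from 50 reads. In RC4 the log2 changes over NT were −2.18 for Pdgfrb, −0.84 for Col1a2, −0.58 for Col1a1, −0.02 for Vim, 0.04 for Fn1 and −0.02 for Thy1. In RC8 they were −1.34 for Pdgfrb, −1.10 for Col1a2, −0.86 for Col1a1, −0.40 for Thy1, −0.32 for Vim and 0.06 for Fn1. In RNA from a whole culture, fewer cells of a type and less RNA per cell cannot be told apart.

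A gene is called changed here when its RPM differed from NT by at least 1.5-fold, a limit of size and not a test. All genes means those listed in a table, which had at least 50 reads in NT and in the treated library, so genes below that in either are not counted. In AS none of the 8 genes was called in either direction, against a background of 1.88% of all genes called higher and 11.4% called lower. In RC4, Azin1 and Odc1 were called higher, 2 of 8 against 8.04% of all genes, and Amd1 and Srm were called lower, 2 of 8 against 31.8%. In RC8 none of the 8 was called higher against 11.3% of all genes, and Oaz2 was called lower, 1 of 8 against 11.9%. The median log2 change over the 8 genes was −0.01 after AS, −0.25 at RC4 and −0.20 at RC8, beside −0.04, −0.30 and 0.01 over all genes. Since the median gene stood 0.30 lower on the log2 scale in RC4, the changes in RC4 are also given relative to that gene.

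**Figure D1:**
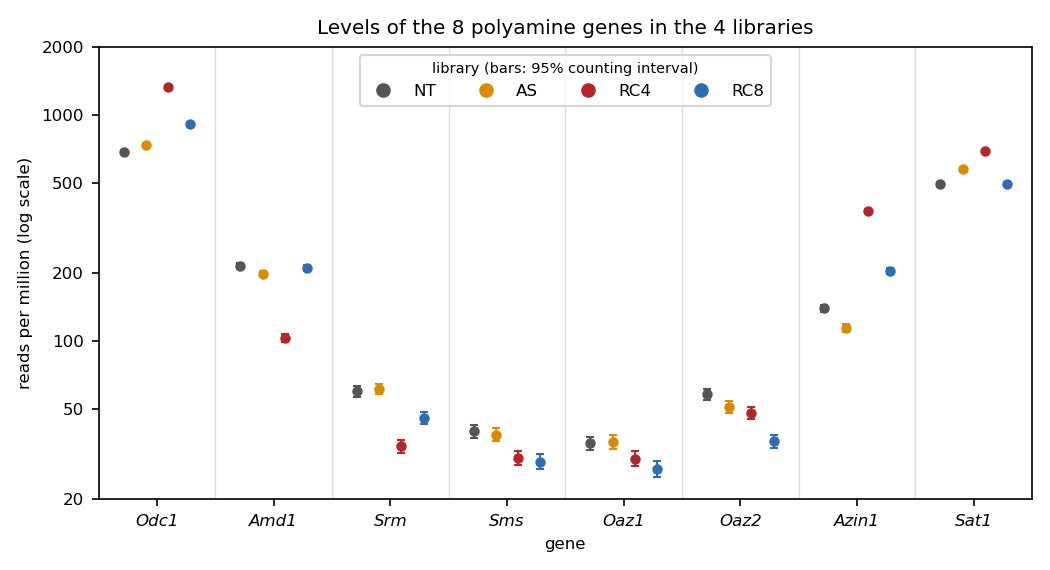
RPM (log axis) of the 8 genes in the NT, AS, RC4 and RC8 libraries, 1 point per library, with 95% exact Poisson intervals of counting error, often smaller than the point. Odc1, Azin1 and Sat1 stood highest in RC4 (1328, 376 and 692), Amd1 and Srm stood lowest there (103 and 34.2), and Sms, Oaz1 and Oaz2 stood lowest in RC8.

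Odc1, the gene of the enzyme that commits ornithine to polyamines, spans chr12:17551679-17558308 on the plus strand. It stood at 689 RPM in NT, 736 after AS, 1328 at RC4 and 911 at RC8, from 15553, 16525, 30408 and 20943 reads. The 4 intervals did not overlap, and the order from the lowest was NT, AS, RC8 and RC4. Over NT, its log2 change was 0.10 after AS [0.06, 0.13], 0.94 at RC4 [0.92, 0.97], which is 1.92-fold, and 0.40 at RC8 [0.37, 0.43]. Of all genes in the RC4 table, 4.03% had a larger increase. Relative to the median gene, the change was 1.25 at RC4 and 0.40 at RC8. From RC4 to RC8 the level was 1.46-fold lower.

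Amd1, the gene of S-adenosylmethionine decarboxylase (chr10:40007265-40021992, minus strand), moved the other way in RC4. It stood at 214 RPM in NT, 199 after AS, 103 at RC4 and 210 at RC8. RC4 stood apart as the low library, and NT and RC8 differed by less than counting error, with a log2 change in RC8 of −0.03 [−0.09, 0.03]. Over NT the log2 change was −0.11 after AS and −1.06 at RC4 [−1.14, −0.99], or 2.09-fold lower, and 11.6% of all genes had a larger decrease in RC4. Relative to the median gene the RC4 value was −0.76, still past 1.5-fold. From RC4 to RC8 the level was 2.04-fold higher, while relative to the median gene the change over NT went from −0.76 to −0.03.

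The number of Odc1 reads per Amd1 read within a library does not depend on how libraries are scaled, and QuantSeq FWD reads come from the 3′ end and were not divided by transcript length. This ratio was 3.21 in NT [3.11, 3.32], 3.70 after AS [3.58, 3.83], 12.9 at RC4 [12.4, 13.5] and 4.33 at RC8 [4.2, 4.47]. RC4 was the high library by a wide margin, and the ratio in RC8 was still above that in NT.

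Srm, spermidine synthase (chr4:147965612-147969102, plus strand), was also lowest in RC4, and its RPM returned less in RC8 than that of Amd1. Its level was 59.9 RPM in NT, 61.5 after AS, 34.2 at RC4 and 45.6 at RC8. NT and AS were within counting error of each other (log2 change 0.04 [−0.07, 0.15]), RC4 was the lowest, and RC8 lay between. The log2 change was −0.81 at RC4 [−0.94, −0.68], 1.76-fold lower, and −0.40 at RC8 [−0.51, −0.28]. In RC4, 20.3% of all genes had a larger decrease, and relative to the median gene Srm stood at −0.51, which is no longer past 1.5-fold. In RC8 it stood at −0.40 relative to the median gene, with a larger decrease in 20.1% of all genes. On that scale Srm returned little from RC4 to RC8.

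Sms, spermine synthase, is on the X chromosome (chrX:153881787-153930219, minus strand) and stood at 40.0 RPM in NT, 38.6 after AS, 30.4 at RC4 and 29.2 at RC8. It was low in both recovery libraries, which differed from each other by less than counting error (RC8 over RC4 −0.06 on the log2 scale [−0.21, 0.10]). Its log2 changes over NT were −0.05 [−0.19, 0.09], −0.40 and −0.45, all short of 1.5-fold. Relative to the median gene, the change was −0.09 at RC4 and −0.46 at RC8, so on that scale Sms stood low in RC8 and near the median gene in RC4. There were 1.5 Srm reads per Sms read in NT, 1.59 after AS, 1.12 at RC4 and 1.56 at RC8, so RC4 was the low library for that ratio.

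**Figure D2:**
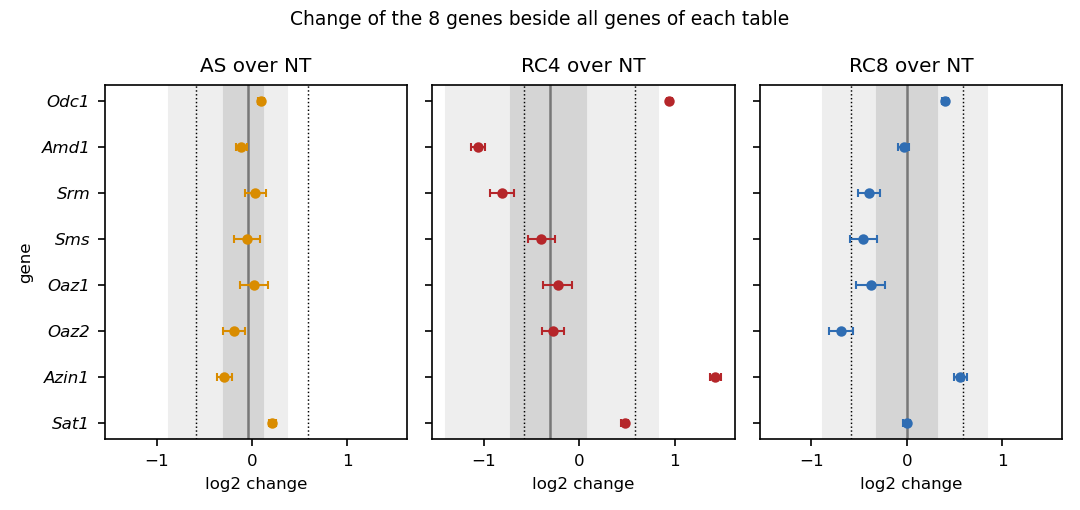
Log2 change over NT (horizontal axis) of the 8 genes in AS, RC4 and RC8, with 95% counting intervals, beside all genes of the same table. The dark band spans the 25th to the 75th percentile of all genes and the light band the 5th to the 95th, the grey line is the median gene and dotted lines mark 1.5-fold. In RC4, Odc1 and Azin1 lie above the light band and Amd1 and Srm lie below the dark band.

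The antizyme genes changed less than these in RC4. Oaz1 (chr10:80289401-80292035, plus strand) stood at 35.2 RPM in NT, 35.8 after AS, 30.2 at RC4 and 27.1 at RC8. Oaz2 (chr9:65515808-65538107, plus strand), the second antizyme, stood at 58.1, 51.2, 48.2 and 36.0. Both were highest in NT or AS and lowest in RC8. RC4 and RC8 did not differ beyond counting error for Oaz1 (log2 −0.15 [−0.31, 0.00]), nor AS and RC4 for Oaz2 (−0.09 [−0.21, 0.03]).

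The log2 changes of Oaz1 over NT were 0.02 after AS [−0.12, 0.17], −0.23 at RC4 and −0.38 at RC8, none past 1.5-fold. Those of Oaz2 were −0.18 after AS, −0.27 at RC4 and −0.69 at RC8 [−0.82, −0.57], the last being 1.62-fold lower, with a larger decrease in 8.65% of all genes. In RC4 both turned direction relative to the median gene, to 0.08 for Oaz1 and 0.03 for Oaz2. In RC8, where the median gene stood at 0.01, neither turned direction.

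Azin1, the antizyme inhibitor (chr15:38417185-38449021, minus strand), had the largest change of the 8 genes. It stood at 140 RPM in NT, 115 after AS, 376 at RC4 and 204 at RC8, with 3155, 2569, 8613 and 4682 reads. AS was the lowest library, NT the next, and the recovery libraries were both above NT, RC4 furthest. The log2 change was −0.29 after AS [−0.36, −0.21], 1.43 at RC4 [1.37, 1.49], which is 2.69-fold, and 0.56 at RC8 [0.50, 0.63]. The RC8 value, against 138 RPM for NT in the RC8 table, is 1.48-fold and so just under the limit for a call, which its interval spans. In RC4 1.54% of all genes had a larger increase, from AS to RC4 the level was 3.29-fold higher, and from RC4 to RC8 it was 1.85-fold lower. Relative to the median gene, the change was 1.73 at RC4 and 0.56 at RC8.

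Reads of Azin1 per read of Oaz1, the inhibitor against the antizyme it binds, numbered 3.96 in NT [3.67, 4.29], 3.20 after AS [2.95, 3.47], 12.5 at RC4 [11.5, 13.5] and 7.50 at RC8 [6.90, 8.17]. Per read of Oaz2 they numbered 2.40 in NT [2.252, 2.565], 2.24 after AS [2.085, 2.399], 7.80 at RC4 [7.33, 8.31] and 5.66 at RC8 [5.25, 6.10]. Both ratios were lowest in AS and highest in RC4, but for Oaz2 the intervals of NT and AS overlapped. They are ratios of RNA reads and say nothing of protein. Reads of Oaz1 and Oaz2 may be missed or shared because of near-identical genomic copies, described below. No such copies were found before the PASs of Azin1, so these ratios do not tell how far inhibitor RNA exceeds antizyme RNA.

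Sat1, the acetyltransferase of polyamine breakdown (chrX:151647675-151650992, minus strand), stood at 497 RPM in NT, 577 after AS, 692 at RC4 and 497 at RC8. NT and RC8 were level (log2 change 0.00 [−0.04, 0.04]), and AS and RC4 were above them. Its log2 change was 0.22 after AS and 0.47 at RC4, 1.39-fold and short of a call, with a larger increase in 10.2% of all genes in RC4. Relative to the median gene the RC4 change was 0.78, which is past 1.5-fold.

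Reads of all members but Azin1 can be affected by near-identical copies elsewhere in the genome. Of the 31-base words in the 300 bases before the PAS of the 3′-most exon of Odc1, 97.8% also occurred elsewhere in NCBIM37, and the shares were 96.3% and 98.9% at the PASs of Amd1, 85.9% at that of Oaz1, 86.7% at that of Sat1 and 67.4% at that of Oaz2. For Srm they were 32.2% and 21.9%, for Sms 5.93% to 95.6%, at the intronic PAS of Odc1 13.3%, and at all 5 PASs of Azin1 0%. The mapping settings in the methods let reads align to several places, and how such reads were counted is not given in the sources used here. Levels of these genes, and the read ratios that include them, may therefore be affected by missed or shared reads. PAS shares and PAS read numbers may be affected too, above all for Odc1 and Sms, whose PASs differ most in such words. Whether the part of reads missed or shared differed between libraries was not tested.

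Of the members, Oaz1, Oaz2 and Sat1 had 1 listed PAS each, and the other 5 had more. A gene is called here when the share of 1 of its PASs differed from NT by at least 10 percentage points. Azin1 was called in each comparison, 1 of 5 members, against 15.3% of the 5287 genes with more than 1 PAS in AS, 29.1% of 5343 at RC4 and 27% of 5357 at RC8. Shares are those that MAAPER, the study's method, estimated, and their intervals treat each read of the gene as assigned.

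PAS 3 of Azin1 accounted for 26.4% of the gene's reads in NT [24.9, 28], 15% after AS [13.7, 16.4], 14.6% at RC4 [13.9, 15.4] and 11.9% at RC8 [11, 12.9], where the NT share in the RC8 table was 26.6%. NT was the high library, and the 3 arsenite libraries lay well below it. The share was lower by 11.4 points in AS, 11.8 at RC4 and 14.7 at RC8, and 88.8%, 77.6% and 87.4% of genes with more than 1 PAS had a smaller largest change. On the scale of RPM the PAS went from 36.9 in NT to 17.2 after AS, 54.9 at RC4 and 24.2 at RC8, so in RC4 its reads were above NT and its share below.

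Which PASs had a larger share than in NT differed between the libraries. PAS 1, the only one of the 5 with AATAAA or ATTAAA in its window, had 24.7% in NT, 32.7% after AS, 27.5% at RC4 and 29.5% at RC8, so it was highest in AS. PAS 4 had 22.0% in NT, 21.3% after AS, 25.4% at RC4 and 31.8% at RC8, and was highest in RC8. PAS 2 had 20.5%, 25.7%, 25.3% and 21.5%, and PAS 5 had 5.24% to 7.29% in every library.

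PASs 1 and 2 together, which lie 284 bases apart and 1091 bases or more from the others, took 45.2% of reads in NT [43.4, 46.9], 58.4% after AS [56.5, 60.3], 52.8% at RC4 [51.7, 53.8] and 51.0% at RC8 [49.6, 52.5]. The proximal pair was thus highest in AS and stood above NT in all 3. RLDu, the study's log2 ratio of mean relative 3′ UTR length, recomputed from the shares, was −0.32 after AS, −0.14 at RC4 and −0.13 at RC8, negative where the 3′ UTR is shorter than in NT.

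REDu, the log2 ratio of the distal to the proximal of the 2 most changed PASs in the 3′-most exon, relative to NT, took another pair of Azin1 PASs in each comparison. It was −1.22 ± 0.11 (counting error) in AS for PASs 1 and 3, −1.16 ± 0.09 at RC4 for PASs 2 and 3, and 1.65 ± 0.10 at RC8 for PASs 3 and 4, only 182 bases apart. Its sign therefore does not compare between the 3 libraries. Between the first and the last PAS it was 0.01 at RC4 and −0.60 at RC8, both opposite in sign to the values above, and the RC4 value is close to 0.

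**Figure D3:**
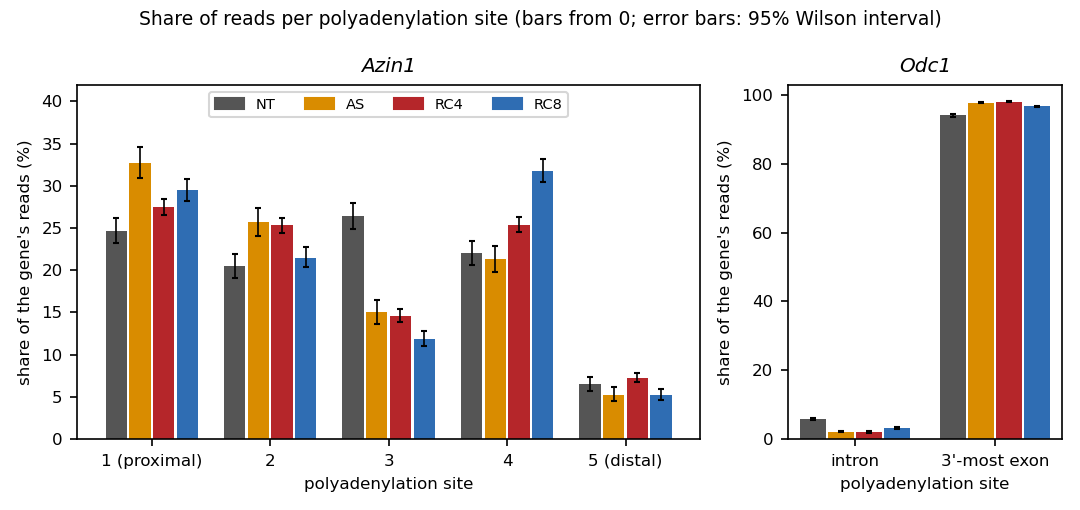
Estimated share of the gene's reads (%, vertical axis from 0) at each PAS of Azin1, from the most proximal to the most distal, and of Odc1, in NT, AS, RC4 and RC8, with 95% Wilson intervals. PAS 3 of Azin1 is at 26.4% in NT and at 11.9% to 15% in the others, and the intronic PAS of Odc1 is at 5.89% in NT and at 2.05% to 3.30% in the others.

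The intronic PAS of Odc1, 4805 bases before the PAS of the 3′-most exon, accounted for 5.89% of the gene's reads in NT [5.53, 6.27], 2.19% after AS [1.98, 2.43], 2.05% at RC4 [1.90, 2.21] and 3.30% at RC8 [3.07, 3.55]. NT was the high library, and AS and RC4 overlapped as the low ones. The change of at most 3.90 points is under 10 points, but a share of 5.89% cannot fall by 10 points, so no call was possible in that direction. In RPM the intronic PAS stood at 40.6 in NT, 16.1 after AS, 27.2 at RC4 and 30.1 at RC8, below NT in all 3, while the PAS of the 3′-most exon stood at 648 in NT and at 720, 1302 and 881 in the others. REDi, the same ratio with the PAS of the intron as the proximal one, was 1.48 ± 0.09, 1.58 ± 0.08 and 0.88 ± 0.07.

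For Amd1 and Srm the shares changed by at most 2.90 points. Their minor PASs, at 5.85% and 6.06% in NT, could likewise not fall by 10 points. The proximal PAS of Amd1 had 5.85% of reads in NT, 6.40% after AS, 7.82% at RC4 [6.80, 8.97] and 7.08% at RC8, a change beyond counting error in RC4 and RC8 alone. The distal PAS listed for Srm, 4851 bases past the annotated end of the gene, had 6.06% in NT, 3.19% after AS, 4.87% at RC4 and 5.73% at RC8. Within 20 bases after it the genome has 6 A in a row or 7 among 10, as it does after the PAS of Sat1 and after 8.31% of all listed PASs, and internal priming at such places was not tested.

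Sms had 3 PASs in the AS table and 2 in the others, so its shares compare only within a table. In the AS table its most distal PAS had 34.2% of reads in NT and 25.6% after AS, a change of −8.60 points [−12.8, −4.36]. In RC4 and RC8 the same PAS changed by −3.00 and −2.90 points, within counting error.

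Beyond the 8 genes, a list of 21 other genes of polyamine metabolism covered precursor supply, paralogs of the members, oxidation, transport and the spermidine-dependent hypusination of eIF5A, and 13, 12 and 13 of them were listed in the AS, RC4 and RC8 tables. In AS 1 of 13 was called higher and 1 lower, against 1.88% and 11.4% of all genes. In RC4 4 of 12 were called higher and 5 lower, against 8.04% and 31.8%. In RC8 3 of 13 were called higher and 1 lower, against 11.3% and 11.9%. Relative to the median gene, 2 were called higher in RC8, with Mat2a at 0.58 and not called. The NT columns of the RC4 table also gave 2. With the first count column of each library alone, the 5 called lower in RC4 were 4, without Atp13a2. With the second column alone they were 7, with Azin2 (−1.02) and Dohh (−0.68) added. The median log2 change of the listed genes was 0.08, −0.53 and 0.26, beside −0.04, −0.30 and 0.01 over all genes. Arg1, Arg2, Agmat, Amd2, Oaz3, Satl1 and Eif5a2 were listed in no table, Paox was listed for AS alone and Sat2 for RC8 alone, and neither these nor Azin2 and Dohh, with 64 to 180 reads a library, were called.

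The genes that supply or recover S-adenosylmethionine stood lowest in RC4, as Amd1 did. Mat2a, a methionine adenosyltransferase, had 327 RPM in NT, 273 after AS, 165 at RC4 and 491 at RC8, log2 changes of −0.26, −0.99 and 0.59, the last of which lay at the limit for a call. Mat2b, its regulatory subunit, had 78.5, 62.0, 24.2 and 44.9, log2 changes of −0.34, −1.70 and −0.81. Mtap, which recovers methionine from the by-product of the aminopropyl transfers, had 348, 345, 172 and 342, a log2 change of −1.02 at RC4. Relative to the median gene, the RC4 changes of Mat2a, Mat2b and Mtap were −0.69, −1.40 and −0.71. A larger decrease in RC4 was seen for 13.6%, 2.45% and 13.0% of all genes.

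On the side of breakdown and transport the values ran in several directions. Smox, spermine oxidase, was 2.31-fold higher in RC4, at 44.2 RPM against 19.1 in NT, with log2 changes of 0.37 after AS and 0.52 at RC8. Slc3a2, the heavy chain of amino acid transporters that has also been tied to polyamine transport, had 125 RPM in NT, 181 after AS, 267 at RC4 and 190 at RC8, log2 changes of 0.53, 1.09 and 0.60. The RC8 interval of Slc3a2 [0.53, 0.67] spanned the limit for a call. Neither Smox nor Slc3a2 was lower than NT in any library.

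Atp13a3, a P-type ATPase that transports polyamines, had 119 RPM in NT, 55.2 after AS, 187 at RC4 and 114 at RC8, and was called lower in AS (log2 change −1.11) and higher in RC4 (0.65). Atp13a2, the lysosomal polyamine exporter of the same family, had 6.69, 11.1, 2.36 and 9.61 on 54 to 250 reads a library, and was called higher in AS (0.74) and lower in RC4 (−1.51). The RC4 library lists 54 of its reads in the first count column and 0 in the second, and on the first column alone its log2 change was −0.33 at RC4, not past 1.5-fold. On the second column alone, its change after AS was 0.55, also not past that limit. Slc18b1, a vesicular polyamine transporter, had a log2 change of −0.68 at RC4, which relative to the median gene was −0.38 and not past 1.5-fold.

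Of the hypusination genes, Dhps, deoxyhypusine synthase, which uses spermidine, had 21.8 RPM in NT, 23.0 after AS, 40.0 at RC4 and 43.5 at RC8, with log2 changes of 0.87 at RC4 and 1.00 at RC8. Eif5a, its substrate and the most abundant gene of the list, stood at 670 in NT, 716 after AS, 617 at RC4 and 596 at RC8, log2 changes of 0.10, −0.12 and −0.17. The RC4 change of Eif5a was 0.18 relative to the median gene, of the opposite sign.

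**Figure D4:**
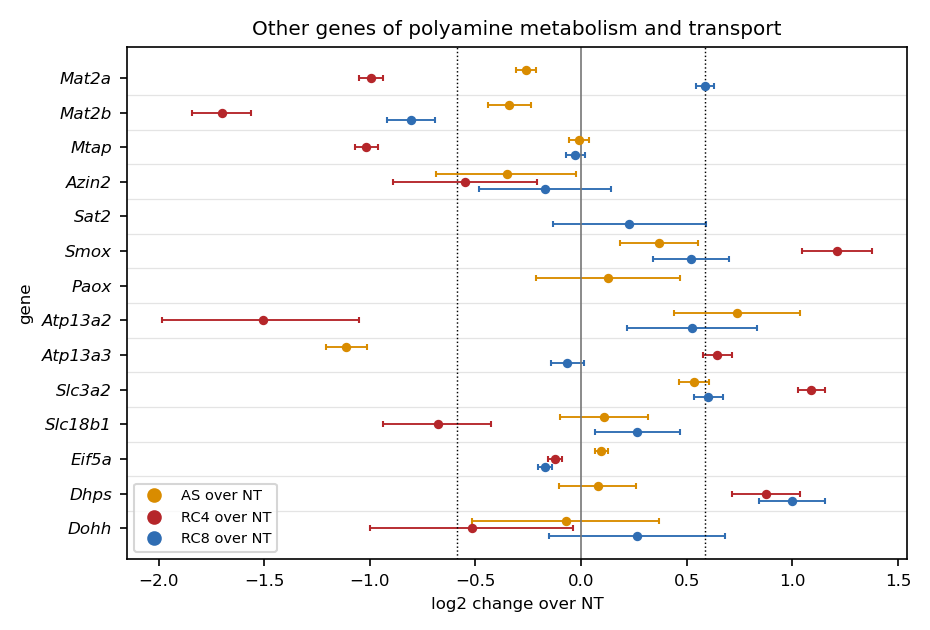
Log2 change over NT (horizontal axis) of the listed genes of polyamine metabolism and transport in AS, RC4 and RC8, with 95% counting intervals, where dotted lines mark 1.5-fold. In RC4 Mat2b lies at −1.70, Atp13a2 at −1.51 with 0 reads in 1 of its 2 count columns (−0.33 on the other column alone), Smox at 1.21 and Slc3a2 at 1.09, and Atp13a3 lies on opposite sides in AS and RC4.

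The genes with the log2 changes nearest to those of Odc1 over the 3 comparisons, by Euclidean distance among 5116 genes with at least 500 reads in every library, were Laptm4b (distance 0.02), Denr (0.11) and Tollip (0.11). Laptm4b had log2 changes of 0.11, 0.93 and 0.41. Nearest to Azin1 were Prkg2 (0.15), Atp6ap2 (0.24) and Phf10 (0.24), and Prkg2 had log2 changes of −0.30, 1.57 and 0.55. The 3 comparisons share the NT library, so these distances are a description.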

How the data were processed

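Per the methods, the authors trimmed reads of the QuantSeq FWD libraries with bbmap, mapped them to mm9 with STAR (2.5.2a in the submitters' processing notes) and ran MAAPER with PolyA_DB v3 on genes with at least 50 reads, selecting PASs at a proportion of 5%. The deposited gene tables hold raw read counts, in 2 columns per library. Set against each other, the 2 columns gave a chi-square of 0.974 to 1.03 per degree of freedom over genes with reads in both, so there they differed by no more than sampling noise, and they were added and counted as 1 sample. Each library also had 43 to 93 genes listed at 0 in 1 column with 50 to 82 reads in the other, and these do differ beyond that noise. What the 2 columns are is not given in the sources used here. For each PAS the deposited PAS tables give a fraction, the part of a gene's reads that the authors' model placed there. Columns of P values, RLD and RED scores hold the authors' own comparisons and were not used. QuantSeq REV libraries are not analysed here.

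Per-million read numbers (RPM) were computed on the total of the genes of a table, each treated library with the NT columns of that table; NT values in the text are from the AS table unless another is named. REDu, REDi and RLDu were recomputed from the fractions. The samples were grouped by their titles. Columns of the tables name conditions 1 and 2 and no sample, and condition 1 was taken as NT from the comparison of each table and the notation of the methods, so every direction rests on that reading. Condition 1 held 15553 Odc1 reads and 11217 Sat1 reads in each of the 3 comparisons, and 3155 or 3111 for Azin1. NT is the library that the 3 comparisons share. No test was possible with 1 library per condition, and genes were called at 1.5-fold or 10 points. The 8 members were named in every library, other genes of the pathway if past 1.5-fold in any comparison or the most abundant, and the 3 nearest profiles of Odc1 and of the member with the largest change. Members and lists were chosen with earlier results of these data known. Alternatives changed the scaling, the NT columns, the count column, the limits and the PASs used. Python 3.11.15, pandas 2.3.3, NumPy 2.4.6 and SciPy 1.17.1 were used, and the scripts were tested on simulated data. Gene spans are those of GENCODE vM1 (NCBIM37).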

Additional observations from a re-analysis of the deposited data

Results flagged for a closer look

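Genes named above were looked at again where their changes over NT ran opposite ways at 2 time points, with both counting intervals off 0 and at least 1 change past 1.5-fold. With 1 library per time point these differences were not tested, and all share the NT library.

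Among the 8 members, Azin1 alone met this, being lower in AS (log2 change −0.29) and higher in RC4 (1.43), a difference of 1.71. Atp13a3 ran the same way, with a difference of 1.76 between AS and RC4. Atp13a2 ran opposite to it, with differences of −2.24 between AS and RC4 and 2.03 between RC4 and RC8, which rest on an RC4 library with 54 reads in 1 count column and 0 in the other. On the first column alone these differences were −1.28 and 1.1. Mat2a was lower in AS and RC4 and higher in RC8, with differences of 0.85 and 1.58. Slc18b1 differed by 0.95 between RC4 and RC8, and relative to the median gene its change in RC4 is −0.38.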

How the results depend on the processing

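Of 168 values of a member's log2 change under another setting, 150 stayed within the counting interval and none of the called ones reversed. Settings with the NT columns of another table, or with totals over genes in all 3 tables, used nearly the same reads, so agreement there says little. In RC4, setting the median gene to no change moved every member outside its interval, such as Odc1 from 0.94 to 1.25 and Amd1 from −1.06 to −0.76. With the median gene set to no change, members called lower in RC4 went from 2 to 1 and all genes called from 811 to 1512 higher and from 3206 to 1752 lower, while Sat1 joined Odc1 and Azin1 as called higher. With the library totals that the study lists, 1 member, Azin1, was called higher in RC8. At 2-fold, RC4 kept 1 member higher and 1 lower, and RC8 had 0 lower. At 2-fold the wider list had 0 genes higher in AS, 2 higher and 3 lower in RC4, and 0 in either direction in RC8, and all genes numbered 65 higher and 337 lower for AS, 372 and 1347 for RC4, and 310 and 369 for RC8. Among genes with at least 200 reads, 96 were higher in AS, and 0 of the wider list, since Atp13a2 had 151 in NT, and the second count column alone also gave 0. At 5 points, 2 members were called by a PAS share in AS, with 2253, 3161 and 3109 genes in AS, RC4 and RC8. RED of Azin1 between its first and last PAS was 0.011 in RC4 and −0.60 in RC8, against −1.16 and 1.65. Counting error limits Oaz1 and Sms most, at 624 to 903 reads. No paired analysis was possible because each condition has 1 library.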
